A study of Mus musculus with 22 samples.

Results

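The genes described here are 38 symbols that mark blood or lymphatic endothelial cells or serve their functions, and all 38 were found among the 17966 genes of the deposited table. The rule was a list of symbols, and no measured value entered it. The list itself was chosen with earlier results of these data known. They are taken by role: 8 receptors, 12 junction and surface proteins, 6 transcription factors and signalling proteins, 4 genes of sprouting and fenestration, 5 of venules and leukocyte entry, and 3 of lymphatic vessels. RNA was read from the 3' ends of transcripts in 22 orthotopic mouse tumours of PDA.7940B, a polyclonal ductal adenocarcinoma line derived from the KPC mouse model. All samples carry the genotype label WT. The untreated group held 5 tumours. A group of 6 received beta-glucan, a fungal cell wall polymer that binds the receptor Dectin-1, as 1 intravenous dose of 1.2 mg. Another 6 received anti-CD40, the agonist antibody FGK45 to a receptor of antigen-presenting cells, as 1 intraperitoneal dose of 0.1 mg. The combination group of 5 received both agents, at doses its label does not state. Treated tumours were taken 10 days after treatment. The labels give neither the age of the animals nor whether 1 mouse gave 1 tumour, and p-values therefore cover the spread between these samples, which may be technical.

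Endothelial cells line blood and lymphatic vessels. Growth factors of the VEGF family act on them through the receptors encoded by Flt1, Kdr and Flt4, and angiopoietins act through the Tie receptors, while Cdh5 and Pecam1 hold neighbouring cells together. Venules let leukocytes leave the blood by displaying selectins, chemokine-binding proteins and adhesion molecules, and lymphatic vessels, whose identity rests on Prox1, carry fluid and cells away. Pancreatic ductal adenocarcinoma is known as a tumour with few and compressed vessels.

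Some libraries stood apart before any gene was tested. Transcripts of the 36 measured acinar genes of normal pancreas took over 30% of reads in anti-CD40 tumours 2, 3, 4 and 6 (31.9 to 75.1%) and in combination tumours 2, 4 and 5 (32.9 to 40.3%), and at most 20% in all other tumours. Untreated tumour 6 had the highest endothelial sum of its group, 14620 normalized counts against 9727 to 11110 in the other untreated tumours, and a macrophage marker sum of 70660 against 11810 to 18260. Anti-CD40 tumour 5 had an endothelial sum of 33400, against 14090 to 17020 in the rest of its group. Depth was 6.33 to 21.2 M reads a tumour (untreated 7.38 to 9.34 M, beta-glucan 7.13 to 8.74 M, anti-CD40 6.33 to 21.2 M, combination 12.2 to 18.8 M). Endothelium was present by its defining markers: Pecam1, Cdh5, Kdr, Flt1 and Tie1 had reads in every tumour, and among the 38 members those without reads in some tumour were Sele, Nos3, Sox18, Sox7 and Mmrn1.

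Promoters of endothelial genes are known targets of ETS family transcription factors, ERG among them, which bind a GGAA core. RefSeq promoters of GRCm38.p6 were listed for 21 of the 38 members. The 250 bases before the start that RefSeq gives are shown for Tie1, Flt4 and Ackr1, which rose in every treated group, and for Flt1, which passed the test in none. They lie at chr4:118489850-118490099 (Tie1, minus strand), chr11:49609429-49609678 (Flt4, plus strand), chr1:173333504-173333753 (Ackr1, minus strand) and chr5:147726012-147726261 (Flt1, minus strand), and each is written 5' to 3' on the strand of its gene, with GGAA or its reverse complement TTCC in capitals. In the GENCODE annotation of the same build the 5' ends of the genes Tie1, Ackr1 and Flt4 are at 118490061, 173333750 and 49609263, so most or all of each of those 3 stretches lies inside the annotated gene, while that of Flt1 lies before it.
Tie1: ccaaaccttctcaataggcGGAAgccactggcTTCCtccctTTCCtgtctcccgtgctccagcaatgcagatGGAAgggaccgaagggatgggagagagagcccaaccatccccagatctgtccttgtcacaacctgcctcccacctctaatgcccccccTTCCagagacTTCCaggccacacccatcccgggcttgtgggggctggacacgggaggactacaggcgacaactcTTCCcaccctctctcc
Flt4: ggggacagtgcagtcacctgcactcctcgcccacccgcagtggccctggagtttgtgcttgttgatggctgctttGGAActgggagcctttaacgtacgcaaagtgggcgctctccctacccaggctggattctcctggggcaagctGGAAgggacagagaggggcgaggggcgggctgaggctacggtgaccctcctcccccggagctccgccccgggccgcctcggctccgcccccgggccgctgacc
Ackr1: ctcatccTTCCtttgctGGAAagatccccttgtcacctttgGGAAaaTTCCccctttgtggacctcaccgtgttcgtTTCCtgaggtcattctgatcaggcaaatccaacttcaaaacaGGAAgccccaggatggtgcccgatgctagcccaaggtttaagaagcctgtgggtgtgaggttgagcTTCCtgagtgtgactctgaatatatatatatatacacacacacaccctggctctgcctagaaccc
Flt1: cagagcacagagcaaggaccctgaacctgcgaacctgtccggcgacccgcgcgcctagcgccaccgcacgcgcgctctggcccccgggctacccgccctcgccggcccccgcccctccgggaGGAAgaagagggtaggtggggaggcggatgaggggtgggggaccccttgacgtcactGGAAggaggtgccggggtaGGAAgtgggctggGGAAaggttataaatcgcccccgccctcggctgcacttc
The core occurred 7 times before Tie1, 2 times before Flt4, 7 times before Ackr1 and 4 times before Flt1. Over full windows of 300 bases, the 26 promoters of the 21 members held it 4.31 times on average, against 3.52 times in all 32851 promoters. At least 1 core was present in 96.15% of the member promoters and in 95.98% of all, so presence alone hardly differed. The longer word CAGGAAG, which contains the core and was read on both strands, was present in 10 of the 26 (38.5%), against 13.3% of all promoters of that length. In the stretches shown it occurred 2 times before Ackr1 and 0 times before each of Tie1, Flt4 and Flt1. Some members have more than 1 promoter in the table (Egfl7, Erg and Prox1), so these are not independent. A match of letters is not a binding site.

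Endothelial genes were mostly higher in treated tumours, and the combination had the most that passed the test. Values are the authors' normalized counts, and a gene was called when limma gave a Benjamini-Hochberg adjusted p below 0.05 over the 14278 genes tested. Of the 38 members 35 passed the filter on low values, and Sele, Sox18 and Nos3 did not. With beta-glucan 8 of the 35 were higher than untreated and 0 were lower, against 5.09% of all tested genes called higher, 1.32% called lower and 6.42% called in all. With anti-CD40 14 were higher and 0 lower, against 11% of all tested genes called higher, 7.56% called lower and 18.6% in all. With the combination 21 were higher and 1 lower, against 18.2% called higher, 15.8% called lower and 34% in all. The median log2 fold change of the members was 0.68, 0.64 and 1.45 in that order, where the median of all tested genes was 0.02, 0.00 and 0.00. Every treated tumour lay above every untreated one for 7, 6 and 16 members, against 3.97%, 5.02% and 11.7% of all genes. No member had every treated tumour below every untreated one, against 2.87%, 4.08% and 10.3% of all genes. In bulk tumours, more cells of a type and more RNA per cell cannot be told apart.

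**Figure D1:**
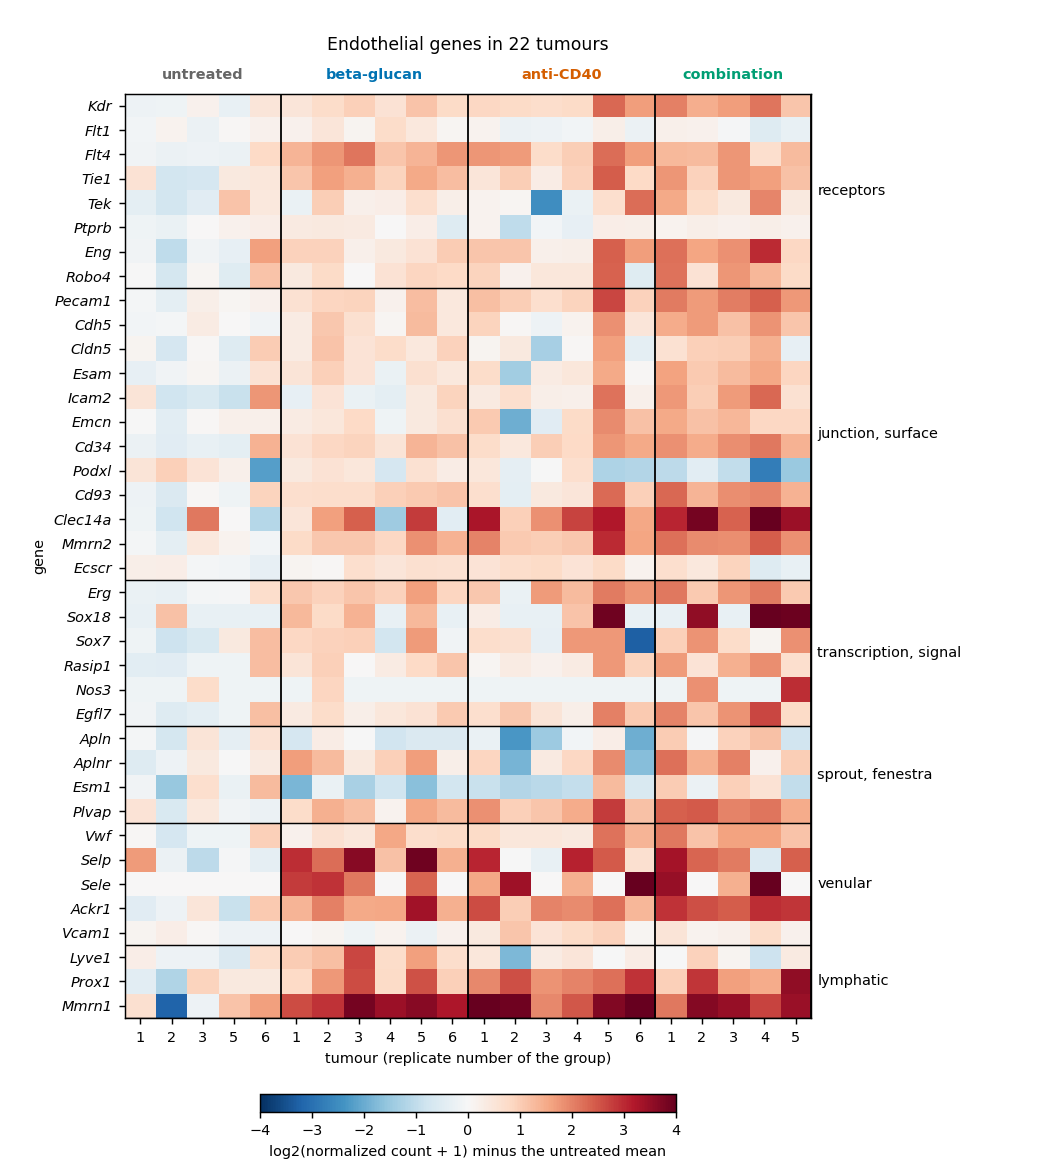
Each row is 1 of the 38 genes, grouped by role, and each column 1 of the 22 tumours. Colour gives log2(normalized count + 1) minus the untreated mean of that gene, limited to -4 and 4. Most rows turn towards higher values in treated tumours, with 21 of 35 tested genes higher with the combination, while Flt1 stays near the untreated level in every group.

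The 7 members called in all 3 comparisons were Tie1, Flt4, Mmrn2, Plvap, Ackr1, Prox1 and Mmrn1. Called in 2 comparisons were 6 (Kdr, Pecam1, Cd34, Clec14a, Erg and Vwf, each with anti-CD40 and with the combination). Called in 1 were 8 with the combination alone (Eng, Robo4, Cdh5, Esam, Icam2, Cd93, Rasip1 and Egfl7), Selp with beta-glucan and Vcam1 with anti-CD40. Podxl was called lower with the combination. Those called in none were 11: Flt1, Tek, Ptprb, Cldn5, Emcn, Ecscr, Sox7, Apln, Aplnr, Esm1 and Lyve1. The 3 comparisons share the untreated tumours. Leaving out the tumours over 30% acinar left 2 anti-CD40 tumours (1 and 5) and 2 combination tumours (1 and 3). Anti-CD40 tumour 5 had the highest endothelial sum of its group, 33400, so the anti-CD40 calls of that fit rest in part on it. The calls there were 13, 23 and 22, against 9.59%, 19% and 22.4% of all genes called in the same fits. With the acinar level in the model they were 8, 10 and 23, against 6.92%, 11.5% and 26.6%, and the anti-CD40 calls of Cd34, Clec14a, Erg, Tie1 and Vwf were lost while Ecscr was gained. With values rescaled to equal totals they were 3, 2 and 12, all higher, against 1.76%, 16.8% and 25.4% of all genes, and the median of all genes then lay at 0.07, -0.56 and -0.45 and that of the members at 0.73, 0.07 and 1.0. Equal totals ended the beta-glucan calls of Mmrn2, Plvap, Prox1, Selp and Tie1. They ended all anti-CD40 calls but those of Prox1 and Mmrn1, and the combination calls of Cdh5, Erg, Esam, Flt4, Icam2, Podxl, Rasip1, Robo4, Tie1 and Vwf.

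**Figure D2:**
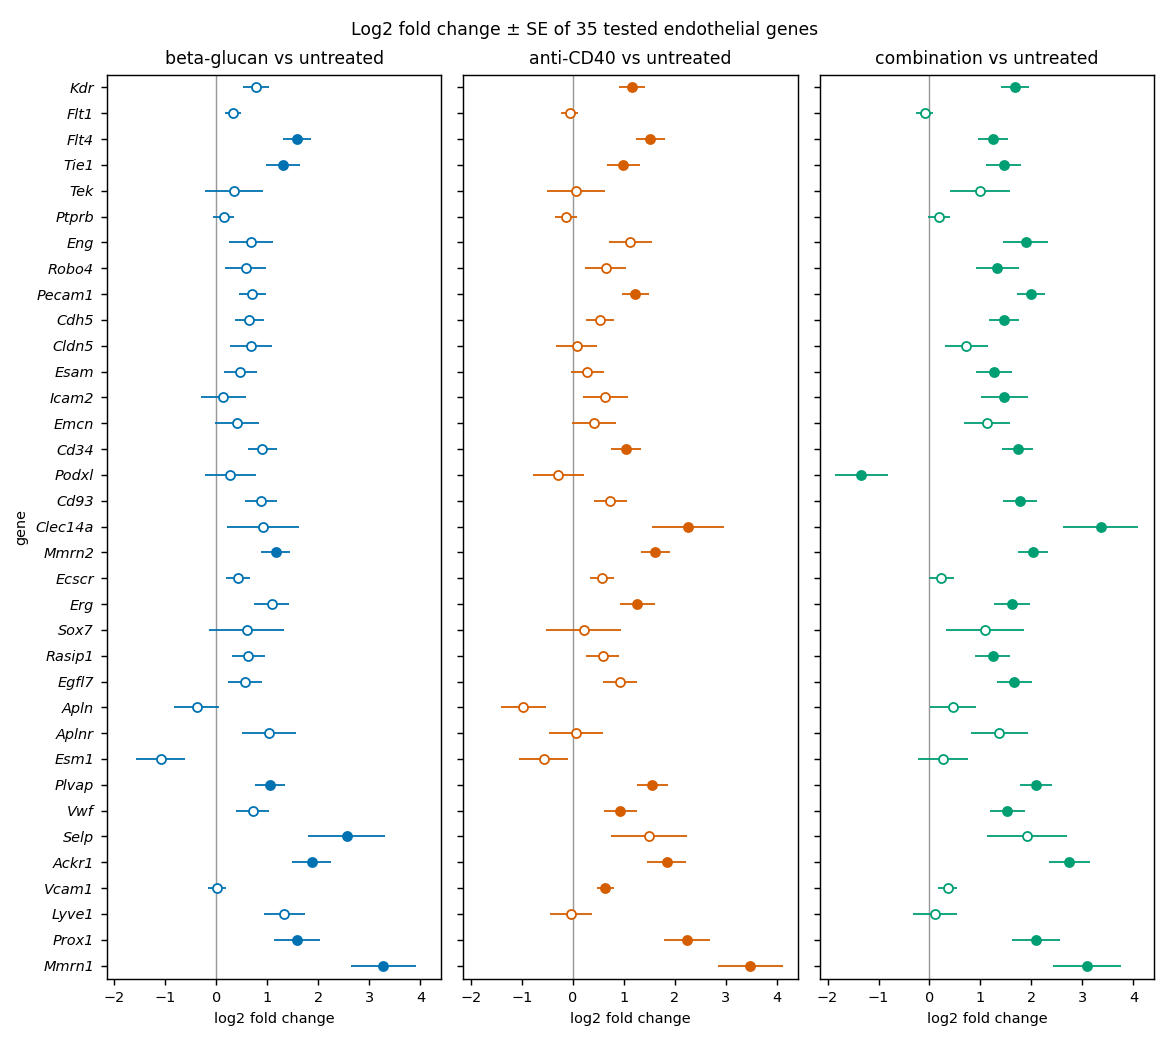
Log2 fold changes against untreated tumours, with standard errors, for the 35 tested genes. Filled points passed the test (8, 14 and 22 genes). Most points lie right of 0, the combination panel has the most filled points, and Podxl is the filled point on the left there.

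Among the receptors, Flt4 and Tie1 rose in every treated group, and Kdr with anti-CD40 and the combination. Of the 8, 2 rose with beta-glucan, 3 with anti-CD40 and 5 with the combination, and 0 fell, where 5.09%, 11% and 18.2% of all genes were called higher. Here and below, values of groups of 5 are in the order of the replicate numbers (1, 2, 3, 5 and 6 for untreated tumours), groups of 6 are given as lowest, median and highest, and the error given with ± is the standard error of the log2 fold change. Adjusted p values are from limma. Kdr encodes VEGFR2, the main signalling receptor for VEGF-A in vessels. Kdr had normalized counts of 493, 506, 635, 457 and 790.1 in untreated tumours, 796, 949.6 and 1251 with beta-glucan, 921, 973 and 2774 with anti-CD40, and 2290, 1532, 1803, 2501 and 1224 with the combination. Every treated tumour was above every untreated one. Kdr rose 2.24-fold with anti-CD40 (log2 1.16 ± 0.26, adjusted p = 0.00238) and 3.20-fold with the combination (1.68 ± 0.27, adjusted p = 3.58e-05). With beta-glucan it was 0.78 ± 0.26 and missed the threshold (adjusted p = 0.073), but passed without untreated tumour 6 or without anti-CD40 tumour 5.

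Flt4 encodes VEGFR3, the receptor for VEGF-C and VEGF-D, found on lymphatic vessels and on sprouting blood vessels. Flt4 had 57.4, 54.4, 55.3, 53.8 and 111 in untreated tumours, 139, 191 and 281 with beta-glucan, 107, 207 and 305 with anti-CD40, and 159, 154, 220.1, 101 and 153 with the combination. Untreated tumour 6 alone of its group reached into the anti-CD40 and combination ranges. The rise was 2.99-fold with beta-glucan (log2 1.58 ± 0.28, adjusted p = 0.000934), 2.87-fold with anti-CD40 (1.52 ± 0.28, adjusted p = 0.000452) and 2.38-fold with the combination (1.25 ± 0.29, adjusted p = 0.0018). Tie1 encodes an orphan receptor that partners TIE2. Tie1 had 99.0, 38.8, 40.4, 85.9 and 88.9 in untreated tumours, 123, 165 and 208 with beta-glucan, 80.5, 119.9 and 354 with anti-CD40, and 224, 124, 226, 206 and 148 with the combination. Beta-glucan and combination tumours lay above all untreated ones, and the anti-CD40 range overlapped theirs. The log2 fold changes of Tie1 were 1.30 ± 0.33 (adjusted p = 0.0171), 0.99 ± 0.33 (adjusted p = 0.0373) and 1.45 ± 0.34 (adjusted p = 0.00202). The beta-glucan call was lost without untreated tumour 2 or 3 (adjusted p up to 0.0617), and the anti-CD40 call without untreated tumour 2 or 3 or anti-CD40 tumour 2, 4 or 5 (adjusted p up to 0.115). Quantile normalization also ended the anti-CD40 call of Tie1.

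Flt1 encodes VEGFR1, which also exists in a soluble form that binds VEGF. Flt1 had 810.3, 957, 738, 905 and 975.5 in untreated tumours, 925, 1065 and 1450 with beta-glucan, 744, 779 and 1018 with anti-CD40, and 1009, 974, 847, 616 and 714 with the combination. All groups overlapped the untreated one, and the log2 fold changes were 0.33 ± 0.16 (adjusted p = 0.269), -0.07 ± 0.16 (adjusted p = 0.821) and -0.09 ± 0.17 (adjusted p = 0.711). Tek encodes TIE2, the angiopoietin receptor. Tek had 19.97, 15.5, 19.3, 59.6 and 36.3 in untreated tumours, 21.9, 31.96 and 53.1 with beta-glucan, 3.96, 28.6 and 128 with anti-CD40, and 77.2, 44.5, 35.02, 106 and 34.9 with the combination. All groups overlapped here too, and its log2 fold changes of 0.35 ± 0.57, 0.06 ± 0.57 and 0.99 ± 0.60 had adjusted p = 0.805, 0.956 and 0.213. Ptprb, the phosphatase that restrains TIE2, ranged from 286 to 408 untreated and from 376 to 403 with the combination, and was called in none of the 3 comparisons. Eng, the TGF-beta co-receptor endoglin that some stromal cells also make, had 171, 94.1, 171, 151 and 602 untreated and 888, 574, 686, 1508 and 337 with the combination. Untreated tumour 6 lay within the combination range. Eng rose by 1.89 ± 0.44 on the log2 scale with the combination (adjusted p = 0.00205). With anti-CD40 it was at 1.12 ± 0.42 (adjusted p = 0.0681), which passed without untreated tumour 6 or anti-CD40 tumour 3 or 4. Robo4, a guidance receptor that steadies vessels, rose with the combination by 1.33 ± 0.41 on the log2 scale (adjusted p = 0.015), from a range of 60.4 to 219 to one of 150.4 to 451.5.

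**Figure D3:**
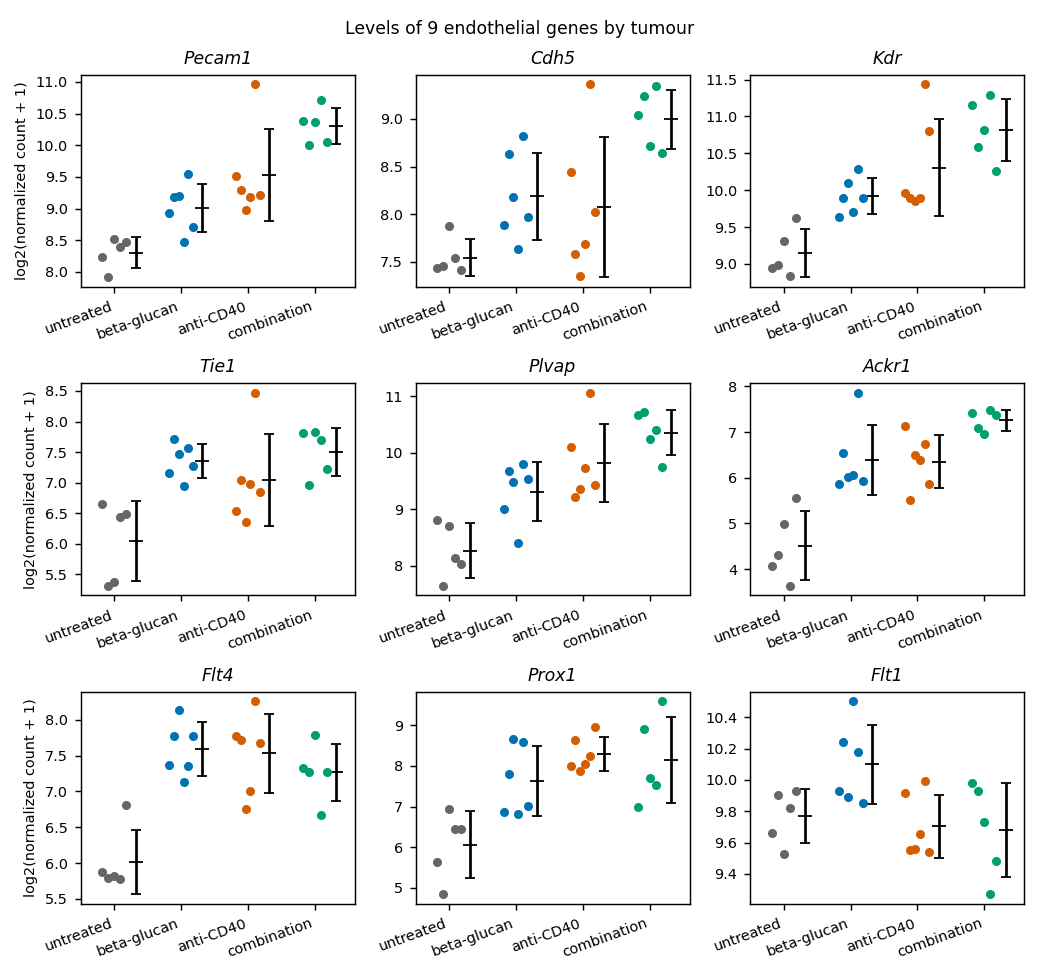
Levels of 9 endothelial genes as log2(normalized count + 1), 1 point a tumour, with the mean and SD of each group beside the points. Combination tumours lie above all untreated tumours for Pecam1, Cdh5, Kdr, Tie1, Plvap, Ackr1 and Prox1, while the groups overlap for Flt1, and 1 anti-CD40 tumour, number 5, is high in most panels.

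Of the 12 junction and surface genes 1 was higher with beta-glucan, 4 were higher with anti-CD40, and 8 were higher and 1 lower with the combination. The share of all tested genes called higher grew in the same order (5.09%, 11% and 18.2%), and 1 of 12 is near that background. Pecam1 (CD31) is the standard vessel marker, though platelets and some leukocytes also make it. Pecam1 had 299.5, 241, 368, 334.5 and 353 in untreated tumours, 355, 532 and 744 with beta-glucan, 506, 611 and 1995 with anti-CD40, and 1338, 1026, 1321, 1670 and 1056 with the combination. No anti-CD40 or combination tumour overlapped an untreated one. The rise was 2.33-fold with anti-CD40 (log2 1.22 ± 0.27, adjusted p = 0.0022) and 3.99-fold with the combination (1.996 ± 0.28, adjusted p = 7.21e-06). Beta-glucan gave 0.70 ± 0.27 (adjusted p = 0.13), which passed without anti-CD40 tumour 5. In combination tumours, in the order of their numbers, acinar genes took 0.665, 32.9, 18.6, 39.3 and 40.3% of reads. A link between these shares and the Pecam1 values was not tested. Cdh5 encodes VE-cadherin, the adherens junction protein of endothelium. Cdh5 had 172, 174, 233, 186 and 169 in untreated tumours, 198, 269 and 449.9 with beta-glucan, 162, 232 and 658 with anti-CD40, and 525, 604, 419, 648 and 399.6 with the combination. The combination tumours all lay above the untreated ones, and the single-agent groups overlapped them. The combination rise was 2.74-fold (log2 1.45 ± 0.30, adjusted p = 0.000492), and with beta-glucan and anti-CD40 the values were 0.64 ± 0.28 (adjusted p = 0.204) and 0.53 ± 0.28 (adjusted p = 0.205).

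Mmrn2, a matrix protein of vessel walls that binds CLEC14A and CD93, was the member of this role that rose in all 3 comparisons. Mmrn2 had 158, 126, 223, 184 and 154 in untreated tumours, 281, 354 and 596 with beta-glucan, 329, 425 and 1315 with anti-CD40, and 763, 614, 601, 899 and 589 with the combination. Every treated tumour exceeded every untreated one, and the log2 fold changes were 1.16 ± 0.29 (adjusted p = 0.0138), 1.61 ± 0.29 (adjusted p = 0.000296) and 2.04 ± 0.30 (adjusted p = 1.32e-05). Clec14a had few reads, with 5.82, 3.45, 32.5, 6.87 and 2.50 untreated and 63.02, 108, 39.2, 133 and 82.4 with the combination, and those groups did not overlap. It rose 10.2-fold with the combination (log2 3.36 ± 0.74, adjusted p = 0.00104) and 4.76-fold with anti-CD40 (2.25 ± 0.70, adjusted p = 0.0269). The anti-CD40 call was lost in 6 of the 22 fits that each left out 1 tumour (untreated 1, 2, 5 or 6, anti-CD40 1 or 5), and the combination call without the tumours over 30% acinar. With edgeR the anti-CD40 call of Clec14a was lost too. Cd93, which myeloid cells also carry, had 1044, 815, 1260, 1081 and 2224 untreated and 5980, 3103, 4389, 4731 and 3168 with the combination, a rise of 3.43-fold (log2 1.78 ± 0.33, adjusted p = 0.000203) with no overlap. Cd34, a sialomucin also present on fibroblasts, had 195, 170, 189.5, 175 and 605 untreated and 818, 644, 836, 1004 and 615 with the combination. The highest untreated tumour, number 6, lay just below the lowest combination tumour. The log2 fold change of Cd34 was 1.73 ± 0.30 there (adjusted p = 9.2e-05) and 1.04 ± 0.29 with anti-CD40 (adjusted p = 0.0125), a call lost with the acinar level in the model and with equal totals.

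Esam and Icam2, adhesion molecules of endothelium, were called with the combination alone. Esam rose by 1.27 ± 0.35 on the log2 scale (adjusted p = 0.0062), from a range of 279 to 525 to one of 639 to 1069. Icam2 rose by 1.47 ± 0.46 (adjusted p = 0.0158), from 76.8 to 485 to 217 to 704, ranges that overlapped, and the call was lost without untreated tumour 5 (adjusted p = 0.0525), with edgeR, with equal totals and without the tumours over 30% acinar. Cldn5, a tight junction protein, Emcn, a sialomucin of capillaries and veins, and Ecscr, a surface regulator of migration, were called in none of the 3 comparisons. With the combination their log2 fold changes were 0.72 ± 0.42 (adjusted p = 0.201), 1.14 ± 0.45 (adjusted p = 0.0539) and 0.23 ± 0.24 (adjusted p = 0.484). Emcn did not overlap between those groups (129 to 202 untreated, 313 to 500.3 with the combination), and it passed without anti-CD40 tumour 2, 5 or 6. Podxl, a sialomucin of the luminal surface that some epithelia also make, was the member that fell. Podxl had 921, 1264, 958, 745 and 139 untreated and 314.5, 486, 331, 94.3 and 232 with the combination, a 2.53-fold fall (log2 -1.34 ± 0.51, adjusted p = 0.0488). Untreated tumour 6 lay within the combination range. The call was lost in 15 of the 22 fits that each left out 1 tumour (adjusted p up to 0.147), and without the filter on low values, with either rescaling to equal totals, with the acinar level in the model and without the tumours over 30% acinar. Beside it, all 11 tested tumour epithelium genes fell with the combination (15.8% of all genes were called lower), and their summed level was 4143 to 9874 against 35750 to 47620 untreated. Their part in the Podxl result was not tested.

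Of the transcription factors and signalling proteins, 4 of 6 could be tested, and 0 rose with beta-glucan, 1 with anti-CD40 and 3 with the combination. Among all genes 5.09%, 11% and 18.2% were called higher. Erg encodes the ETS factor that maintains endothelial identity. Erg had 39.9, 38.8, 45.6, 46.97 and 78.9 in untreated tumours, 88.2, 97.4 and 153 with beta-glucan, 40.03, 138 and 206 with anti-CD40, and 213.5, 99.9, 168, 208.5 and 102 with the combination. All beta-glucan and combination tumours were above the untreated ones, as were 5 of the 6 with anti-CD40. The log2 fold changes were 1.08 ± 0.34 (adjusted p = 0.0579), 1.26 ± 0.34 (adjusted p = 0.0109) and 1.62 ± 0.36 (adjusted p = 0.00107), and the first passed without untreated tumour 6 or anti-CD40 tumour 2 or 5. The anti-CD40 call of Erg was lost with the acinar level in the model and with equal totals, and its combination call with equal totals. Egfl7, a secreted protein of endothelium and the host gene of miR-126, had 639.7, 497, 539.6, 628 and 1608 untreated and 2783, 1512, 2459, 4514 and 1196 with the combination. Untreated tumour 6 overlapped the combination group. Egfl7 rose 3.17-fold with the combination (log2 1.67 ± 0.35, adjusted p = 0.000683), and with anti-CD40 it was at 0.93 ± 0.33 (adjusted p = 0.0551). Rasip1, which vessels need to open a lumen, rose 2.37-fold with the combination (log2 1.24 ± 0.34, adjusted p = 0.0066), from a range of 248 to 803 to one of 498 to 1241. Sox7, a factor of vessel development, had at most 21.3 untreated and 32.98 with the combination and was called in none of the 3 comparisons. Sox18, its relative, and Nos3, the endothelial nitric oxide synthase, had too few reads to test. Over the untreated, beta-glucan, anti-CD40 and combination groups Sox18 had 2, 7, 24 and 54 reads, and Nos3 had 1, 1, 0 and 13. Another gene of the table lies near the 3' end of Eng, Cd34, Ecscr, Rasip1, Nos3, Egfl7, Esm1, Plvap and Selp, and as the use of strand in counting is not given in the sources used here, reads of those pairs cannot be told apart.

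Among sprouting and fenestration genes Plvap alone passed as reported, in all 3 comparisons, while Aplnr passed under some alternatives. Plvap forms the diaphragms of fenestrae and marks leaky capillaries and venules. Plvap had 448, 199, 414, 281 and 259 in untreated tumours, 336, 724 and 889 with beta-glucan, 596, 768 and 2136 with anti-CD40, and 1622, 1693, 1209, 1347 and 857 with the combination. All anti-CD40 and combination tumours and 5 of the 6 beta-glucan tumours exceeded the untreated ones. Plvap rose 2.07-fold (log2 1.05 ± 0.30, adjusted p = 0.0373), 2.94-fold (1.55 ± 0.30, adjusted p = 0.000772) and 4.26-fold (2.09 ± 0.32, adjusted p = 1.92e-05). The beta-glucan call was lost without any of 7 tumours (untreated 2, 5 or 6, beta-glucan 2, 3, 5 or 6; adjusted p up to 0.112). Esm1, a proteoglycan of tip cells that VEGF induces, gave -1.096 ± 0.48 with beta-glucan (adjusted p = 0.2), -0.58 ± 0.48 after anti-CD40 (adjusted p = 0.443) and 0.26 ± 0.50 after the combination (adjusted p = 0.721). Esm1 had 194, 75.1, 340.4, 179.9 and 518 untreated and 432, 183, 418.5, 320.1 and 109.6 with the combination, so the groups overlapped. Apln, a tip cell ligand, gave -0.39 ± 0.44, -0.97 ± 0.44 and 0.46 ± 0.46 (adjusted p = 0.698, 0.127 and 0.471). Its receptor gene Aplnr gave 1.02 ± 0.53, 0.06 ± 0.53 and 1.37 ± 0.56 (adjusted p = 0.305, 0.954 and 0.0607). The combination value of Aplnr passed with edgeR, with DESeq2 and with the acinar level in the model. It also passed without anti-CD40 tumour 2, 5 or 6 or combination tumour 4. Without the tumours over 30% acinar Aplnr passed in all 3 comparisons.

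The genes of venules and leukocyte entry that could be tested were 4 of 5, and 2 rose with beta-glucan, 3 with anti-CD40 and 2 with the combination. Among all genes 5.09%, 11% and 18.2% were called higher. Ackr1, the atypical chemokine receptor of venules that binds chemokines, rose in all 3 comparisons. Ackr1 had 15.8, 18.99, 30.7, 11.5 and 46.3 in untreated tumours, 57.7, 64.7 and 231 with beta-glucan, 44.5, 86.5 and 138 with anti-CD40, and 169, 135, 123, 177 and 165 with the combination. Every combination and beta-glucan tumour was above the untreated ones, as were 5 of the 6 with anti-CD40. Ackr1 rose 3.65-fold (log2 1.87 ± 0.38, adjusted p = 0.00343), 3.57-fold (1.84 ± 0.38, adjusted p = 0.00149) and 6.69-fold (2.74 ± 0.40, adjusted p = 1.32e-05). Vwf encodes the clotting factor stored in endothelial granules and platelets. Vwf had 116.5, 69.9, 99.2, 98.5 and 218 in untreated tumours, 127, 177 and 326 with beta-glucan, 146, 172 and 507 with anti-CD40, and 487, 249.7, 343.5, 344 and 249 with the combination. The combination group did not overlap the untreated group, and the single-agent groups did. Vwf rose 2.89-fold there (log2 1.53 ± 0.34, adjusted p = 0.00108) and 1.90-fold with anti-CD40 (0.93 ± 0.32, adjusted p = 0.0457), a call lost in 12 of the 22 fits that left out 1 tumour (untreated 1, 2, 3 or 5, beta-glucan 2, 3, 5 or 6, anti-CD40 1, 5 or 6, combination 3). The anti-CD40 call of Vwf was also lost without the filter on low values, with quantile normalization, with edgeR and with a replicate block. With beta-glucan Vwf was at 0.71 ± 0.32 (adjusted p = 0.222).

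Selp encodes P-selectin, which endothelium and platelets move to the surface to slow leukocytes. Selp had 29.1, 6.91, 3.51, 8.02 and 6.26 in untreated tumours, 19.95, 57.01 and 138 with beta-glucan, 6.60, 31.6 and 78.2 with anti-CD40, and 93.3, 46.3, 38.4, 5.31 and 47.5 with the combination. Each treated group overlapped the untreated one. Selp rose with beta-glucan (log2 2.55 ± 0.75, adjusted p = 0.0409), a call lost without any of 8 tumours (untreated 2, 3, 5 or 6, beta-glucan 1, 2, 3 or 5; adjusted p up to 0.119). Its values with anti-CD40 and the combination were 1.48 ± 0.75 (adjusted p = 0.178) and 1.92 ± 0.78 (adjusted p = 0.061), and the latter passed without untreated tumour 1 or combination tumour 4. Sele, the endothelial selectin induced by inflammatory cytokines, had 0 reads in all untreated tumours. It had 19 reads in 4 beta-glucan tumours, 32 in 4 anti-CD40 tumours and 133 in 3 combination tumours, of which tumour 4 had a normalized count of 153. Against a floor of 3 reads over the untreated group, a normalized count of 0.580, the mean was at least 5.63-fold, 13.2-fold and 56.8-fold higher, bounds that cover counting error only. Leaving out each treated tumour in turn, an alternative chosen after seeing the data, gave at least 4.54-fold without anti-CD40 tumour 6 and at least 5.15-fold without combination tumour 4, so the higher bounds of those groups rest on 1 tumour each. Vcam1, the integrin ligand that stromal cells and macrophages also make, had 2661, 2925, 2542, 2118 and 2110 in untreated tumours, 2062, 2564 and 2755 with beta-glucan, 2613, 3870 and 5262 with anti-CD40, and 3467, 2718, 2851, 4090 and 2768 with the combination. Vcam1 rose with anti-CD40 (log2 0.63 ± 0.17, 1.55-fold, adjusted p = 0.0115), where 5 of 6 tumours exceeded all untreated ones. It gave 0.01 ± 0.17 with beta-glucan (adjusted p = 0.993) and 0.36 ± 0.18 with the combination (adjusted p = 0.133).

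The lymphatic genes split with anti-CD40 and the combination. Prox1 and Mmrn1 rose in every treated group, and Lyve1 passed in none of the 3 comparisons as reported. With beta-glucan Lyve1 came near the threshold (limma adjusted p = 0.0504), so the split was not clear there. Prox1 encodes the factor that sets lymphatic identity, and pancreatic endocrine cells are known to express it too. Prox1 had 48.3, 27.6, 121, 85.9 and 86.4 in untreated tumours, 112, 175 and 408 with beta-glucan, 232, 283 and 494 with anti-CD40, and 127, 481, 206, 185 and 772 with the combination. No anti-CD40 or combination tumour overlapped the untreated ones. Prox1 rose 2.97-fold (log2 1.57 ± 0.45, adjusted p = 0.0368), 4.71-fold (2.23 ± 0.45, adjusted p = 0.00113) and 4.26-fold (2.09 ± 0.47, adjusted p = 0.00136). The beta-glucan call was lost without any of 6 tumours (untreated 1, 2 or 5, beta-glucan 2, 3 or 5; adjusted p up to 0.117), and the combination call without the tumours over 30% acinar. Quantile normalization and equal totals also ended the beta-glucan call of Prox1. Among islet genes, 1, 10 and 9 of the 16 tested rose in the 3 comparisons, against 5.09%, 11% and 18.2% of all genes. With beta-glucan 1 of 16 is near that background. The summed level of the islet genes was 669.7 to 7040 untreated, 1034 to 14420 with beta-glucan, 3181 to 111400 with anti-CD40 and 1292 to 39300 with the combination. With the acinar level in the model all 3 calls of Prox1 held. That level was taken from acinar genes and does not measure islet cells. The part of islet cells in the Prox1 result was not tested.

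Mmrn1 encodes multimerin 1, a product of lymphatic endothelium and of platelets. Mmrn1 had 13.3, 0, 7.02, 19.5 and 27.6 in untreated tumours, 55.7, 92.1 and 130.1 with beta-glucan, 34.3, 128 and 266 with anti-CD40, and 38.6, 118, 102, 59.8 and 101 with the combination. Every treated tumour exceeded every untreated one. The rise was 9.67-fold (log2 3.27 ± 0.63, adjusted p = 0.00208), 11.1-fold (3.48 ± 0.63, adjusted p = 0.000398) and 8.51-fold (3.09 ± 0.66, adjusted p = 0.000837), and as 1 untreated tumour had no reads these sizes depend on the pseudocount. Lyve1 encodes the hyaluronan receptor of lymphatic capillaries and of some tissue macrophages. Lyve1 had 111.5, 81.1, 80.7, 61.9 and 153 in untreated tumours, 151, 204 and 598.5 with beta-glucan, 26.1, 116 and 129 with anti-CD40, and 92.6, 178, 100, 51.8 and 119 with the combination. The beta-glucan log2 fold change was 1.33 ± 0.41 (adjusted p = 0.0504), and it passed in 7 of the 22 fits that left out 1 tumour. That value also passed with a pseudocount of 8, with the filter of 30, with edgeR, with DESeq2 and without the tumours over 30% acinar. The anti-CD40 value was -0.04 ± 0.41 (adjusted p = 0.964), and that of the combination 0.11 ± 0.43 (adjusted p = 0.868). Macrophage genes, of which 3, 7 and 9 of 10 rose in the 3 comparisons (against 5.09%, 11% and 18.2% of all genes), had summed levels of 11810 to 70660 untreated, 25850 to 38570 with beta-glucan, 32210 to 85690 with anti-CD40 and 44270 to 102800 with the combination. Their part in the Lyve1, Cd93 and Vcam1 values was not tested.

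Platelets also carry Vwf, Selp, Mmrn1 and Pecam1, so their own genes are given beside them. Of 5 tested platelet genes, Pf4 rose in each comparison and the other 4 passed in none. Pf4, a chemokine that macrophages also make, had 1007 to 2255 untreated, 3586 to 5895 with beta-glucan, 1567 to 6007 with anti-CD40 and 5357 to 12390 with the combination. Gp9, a subunit of the platelet receptor for VWF, had at most 7.77, 11.4, 27.2 and 3.88 in the 4 groups. Tubb1, the platelet tubulin, was at 0 in all untreated tumours. The platelet sum over 9 genes was 1173 to 2541, 4137 to 6329, 1727 to 6193 and 5498 to 12720 over the 4 groups, most of it Pf4. The part of platelets in these results was not tested.

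The combination was compared with each agent alone. Against beta-glucan, 7 of the 35 tested members were higher and 2 lower, against 6.49% of all genes called higher and 7.61% called lower. The higher ones were Pecam1 (log2 1.30 ± 0.27, adjusted p = 0.00246), Clec14a (2.44 ± 0.70, adjusted p = 0.0219), Kdr (0.90 ± 0.26, adjusted p = 0.0197), Plvap (1.04 ± 0.30, adjusted p = 0.0226), Egfl7, Icam2 and Mmrn2. All 5 combination tumours had more Pecam1 than any beta-glucan tumour, and 4 members in all did not overlap on the higher side and 0 on the lower, against 5.67% and 5.8% of all genes. Podxl (-1.61 ± 0.49, adjusted p = 0.0312) and Lyve1 (-1.22 ± 0.41, adjusted p = 0.0461) were lower. With equal totals 0 were higher and 2 lower, against 8.28% of all genes called in either direction. With equal totals outside the acinar genes 4 were higher and 3 lower, against 14.8%. Of all genes, 14.1% were called as reported, 10.1% with the acinar level in the model and 1.75% without the tumours over 30% acinar. In the last 2 fits the count of 9 fell to 5 and to 1, Pecam1. It was 2 without combination tumour 4, 3 without beta-glucan tumour 1 or combination tumour 1, 4 without beta-glucan tumour 3 or 4, and 14 without anti-CD40 tumour 5.

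Against anti-CD40, limma called 0 of 35, with 10 at an unadjusted p under 0.05, and edgeR and DESeq2 called 0. Of all genes limma called 1.48% (0.658% higher and 0.826% lower), edgeR 1.04% and DESeq2 4.66%. The 3 with the smallest adjusted p were Cd93 (log2 1.04 ± 0.32, adjusted p = 0.0929), Apln (1.44 ± 0.44, adjusted p = 0.0939) and Cdh5 (0.92 ± 0.28, adjusted p = 0.095). Without anti-CD40 tumour 5, 7 were called: Kdr, Pecam1, Cdh5, Esam, Cd93, Apln and Aplnr. Between the single agents 1 member was called, Vcam1, higher with anti-CD40 (log2 0.63 ± 0.16, adjusted p = 0.0432), against 1.61% of all genes called higher and 2.1% called in either direction, and that call was lost in 15 of the 22 fits that left out 1 tumour. Every anti-CD40 tumour was below every beta-glucan tumour for Lyve1 (log2 -1.37 ± 0.39, adjusted p = 0.0689), as for 0.687% of all genes.

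The interaction sets the combination against the 2 single-agent changes added together as log2 values. Limma called 0 of 35 members, with 6 at an unadjusted p under 0.05, edgeR called 0 and DESeq2 called 2 (Flt4 and Mmrn1). Of all genes limma called 0.021%, edgeR 0.014% and DESeq2 0.686%. Flt4 had -1.85 ± 0.40 (adjusted p = 0.1), Mmrn1 -3.66 ± 0.90 (adjusted p = 0.193) and Prox1 -1.72 ± 0.64 (adjusted p = 0.4). The tip cell genes Esm1 (1.94 ± 0.67, adjusted p = 0.357) and Apln (1.82 ± 0.62, adjusted p = 0.337) had the opposite sign. Without untreated tumour 6, Flt4 passed and the count was 1.

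Ligands and regulators of vessel growth moved in both directions with anti-CD40 and the combination. Of 22 tested genes of this list, 0 were called with beta-glucan by limma (9 at an unadjusted p under 0.05), 4 were higher and 5 lower with anti-CD40, and 6 higher and 6 lower with the combination. Of all genes 6.42% were called with beta-glucan, 11% higher and 7.56% lower with anti-CD40, and 18.2% higher and 15.8% lower with the combination. The list median was 0.25, 0.06 and 0.15 on the log2 scale. Vegfa, the main ligand of KDR, had 765 to 1654 untreated, 469.5 to 834 with beta-glucan, 185 to 1068 with anti-CD40 and 142 to 814 with the combination. Vegfa fell with anti-CD40 (log2 -1.62 ± 0.40, adjusted p = 0.00695) and in the combination group (-1.71 ± 0.42, adjusted p = 0.00314), and with beta-glucan it was at -0.83 ± 0.40 (adjusted p = 0.268). Angpt2, the TIE2 ligand that endothelium releases when vessels remodel, rose with anti-CD40 (0.93 ± 0.31, adjusted p = 0.0373) and the combination (1.24 ± 0.32, adjusted p = 0.00464), and gave 0.56 ± 0.31 with beta-glucan (adjusted p = 0.339). Gja4, a connexin of arterial endothelium, rose by 1.51 ± 0.34 (adjusted p = 0.00265) and 2.26 ± 0.35 (adjusted p = 2.66e-05), and no tumour of either group overlapped the untreated range of 34.9 to 70.1. Angpt1, the ligand that stabilises vessels, rose with the combination (1.82 ± 0.41, adjusted p = 0.00143), from 17.5 to 70.8 untreated to 91.4 to 162. Efnb2, an arterial ephrin that epithelium also makes, fell by 1.88 ± 0.38 on the log2 scale (adjusted p = 0.00103) and fell by 2.61 ± 0.39 (adjusted p = 1.91e-05) in those groups. Adm, adrenomedullin, fell by 1.46 ± 0.35 (adjusted p = 0.00443) and fell by 1.30 ± 0.36 (adjusted p = 0.00727).

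Some genes of the cells that wrap vessels rose as well. Of 13 tested pericyte and mural genes 2 rose with beta-glucan, 1 with anti-CD40 and 5 with the combination, and none fell. The shares of all genes called higher were 5.09%, 11% and 18.2%, so 1 of 13 with anti-CD40 is not above the background. Rgs5, a pericyte marker, had 239 to 376 untreated, 353 to 1457 with beta-glucan, 329 to 1491 with anti-CD40 and 996 to 2411 with the combination. Its log2 fold changes were 1.17 ± 0.36 (adjusted p = 0.049), 1.42 ± 0.36 (adjusted p = 0.00677) and 2.29 ± 0.37 (adjusted p = 4.85e-05). Pdgfrb, the receptor that recruits pericytes and is shared with fibroblasts, rose with beta-glucan (1.71 ± 0.43, adjusted p = 0.0171) and the combination (2.002 ± 0.45, adjusted p = 0.00135), and Notch3, Mcam and Kcnj8 rose with the combination. Of 6 tested genes of high endothelial venules, the vessels through which lymphocytes enter lymph nodes, 2 were higher and 0 lower with beta-glucan, 2 higher and 1 lower with anti-CD40, and 3 higher and 1 lower with the combination. Beside the shares called higher just given, 1.32%, 7.56% and 15.8% of all genes were called lower. Glycam1 and Madcam1 rose in all 3 comparisons. Glycam1 had 0 reads in untreated tumours and 7.60 to 32.8 with beta-glucan, 29.04 to 149 with anti-CD40 and 11.6 to 79.2 with the combination. Madcam1 had 0 to 35.1 untreated and 26.6 to 102, 56.8 to 359 and 101 to 189 in the treated groups. Fut7, a fucosyltransferase that leukocytes also make, rose with the combination (log2 2.61 ± 0.86, adjusted p = 0.0208), from 0 to 4.16 untreated to 4.85 to 22.5. Chst4, a sulfotransferase, went the other way: it fell with anti-CD40 (log2 -3.76 ± 0.72, adjusted p = 0.000673) and the combination (-7.11 ± 0.75, adjusted p = 2e-07).

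Marker genes of other cell types changed in the same comparisons, where 5.09%, 11% and 18.2% of all genes were called higher and 1.32%, 7.56% and 15.8% lower. Leukocyte genes rose in 6, 7 and 7 of 7 tested, and Ptprc (CD45) had 336 to 982 untreated and 997 to 1900, 1206 to 3305 and 2120 to 3526 in the treated groups. The leukocyte sum was 1851 to 4189 untreated, 5148 to 9757 with beta-glucan, 6072 to 16010 with anti-CD40 and 12200 to 15540 with the combination. Fibroblast genes rose in 5, 5 and 10 of 10, with sums of 27940 to 54550, 61580 to 167200, 29100 to 103700 and 136200 to 158200. Tumour epithelium genes fell in 2, 8 and 11 of 11, and Epcam, an adhesion protein of epithelia, had log2 fold changes of -1.67 ± 0.40 after anti-CD40 (adjusted p = 0.00477) and -2.02 ± 0.42 after the combination (adjusted p = 0.000637). The acinar gene Cela2a had 0 to 1926 untreated, 98.7 to 9273 with beta-glucan, 459 to 163100 with anti-CD40 and 376 to 59100 with the combination. The endothelial sum was 9727 to 14620 untreated, 13890 to 17560 with beta-glucan, 14090 to 33400 with anti-CD40 and 18040 to 30320 with the combination. As a share of all reads it was 0.1151 to 0.1405% untreated and 0.1619 to 0.2187% with beta-glucan. With anti-CD40 the share was 0.04446 to 0.3918%, and with the combination 0.1401 to 0.344%. By share, the combination and untreated groups overlapped, and anti-CD40 tumours 2 and 6 lay below all untreated tumours. The endothelial sum leans on abundant members, among them Vcam1 and Cd93, which other cells also make. Vcam1 had a mean of 2471 untreated and 3179 with the combination, and Cd93 1285 and 4274. The part of these other cell types in the endothelial result was not tested.

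**Figure D4:**
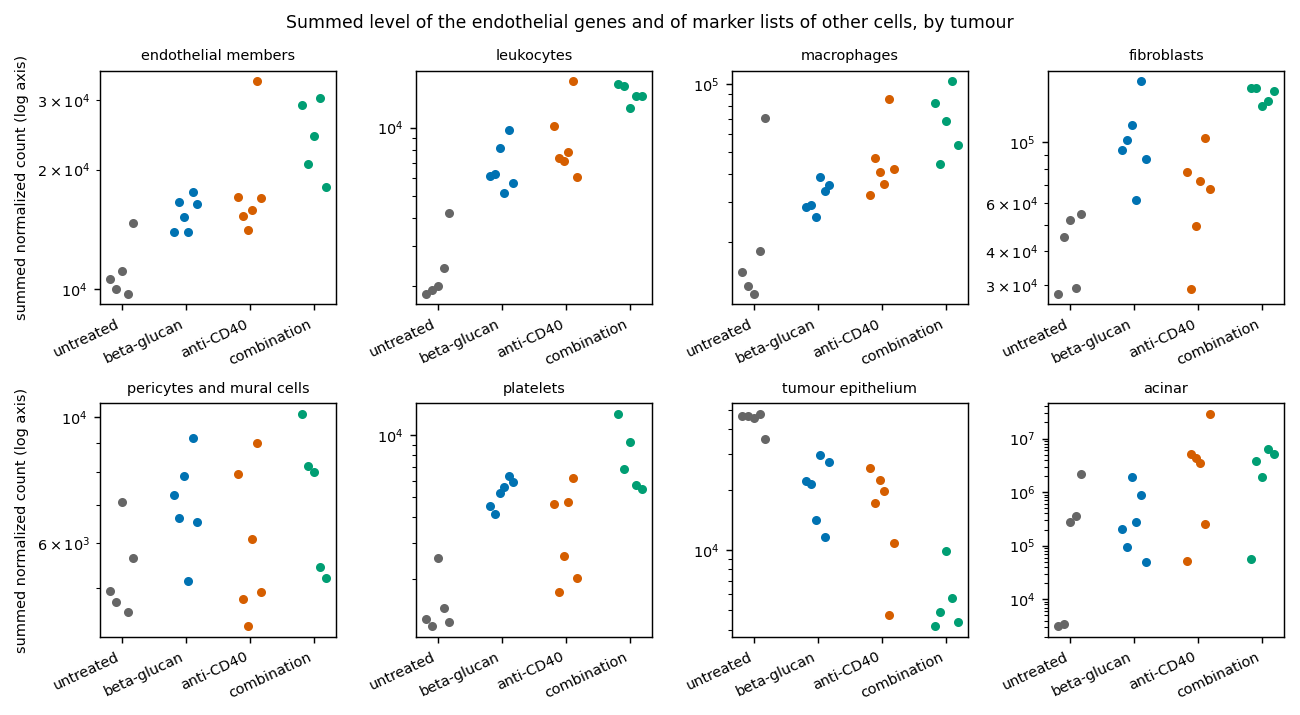
Summed normalized counts of the 38 endothelial genes and of 7 marker lists of other cells, 1 point a tumour, on log axes. The endothelial sum includes abundant genes that other cells also make, such as Vcam1 and Cd93. The endothelial sum is 18040 to 30320 with the combination against 9727 to 14620 untreated, epithelial sums of all combination tumours lie below those of all untreated ones, and acinar sums spread widely within every group. As a share of all reads, not drawn here, the endothelial genes of these groups overlap (0.1401 to 0.344% with the combination, 0.1151 to 0.1405% untreated).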

How the data were processed

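RNA from 22 fixed tumours (untreated 5, beta-glucan 6, anti-CD40 6, combination 5) was sequenced from transcript 3' ends, 6.33 to 21.2 M reads a tumour. The deposited values are normalized counts (a signal unit): the authors' gene counts divided by size factors, and STAR, DESeq2 and the build mm10 are named per the submitters' processing notes, without versions. How reads were counted, with which annotation and whether by strand, is not given in the sources used here. Whole reads could be recovered from the steps of the values (100% of 395252 values within 0.001 reads). Groups came from the sample labels.

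Values were tested as log2(normalized count + 1) with limma 3.58.1 (R 4.3.3; trend and robust), 22 tumours in 1 fit, 7 contrasts, two-sided, with Benjamini-Hochberg adjustment within a contrast over the 14278 genes that reached 10 in 5 or more tumours, at a threshold of 0.05. Fold changes are on that log2 scale and understate the change of low genes. The script was tested on simulated data. Alternatives were a pseudocount of 8, no filter, a filter of 30, equal totals with and without acinar genes, quantile normalization, edgeR 4.0.16 and DESeq2 1.42.0 on recovered reads, the acinar level as a covariate, leaving out tumours over 30% acinar, a replicate block, and leaving out each tumour. All 38 members are named; levels are given for members called against untreated, up to 4 per role and comparison by smallest p, and for a fixed set of vessel genes, and of the other lists up to 4 called genes each plus Vegfa, Angpt2, Rgs5, Pf4, Ptprc, Cela2a and Epcam. The members and lists were chosen with earlier results of these data known. Promoters are from RefSeq (GRCm38.p6).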

Additional observations from a re-analysis of the deposited data

Results flagged for a closer look

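In 16 of 140 pairs of a member and a group, 1 tumour lay apart from the rest of its group (its gap to the nearest tumour, over the range of the group, exceeded Dixon's 95% value), where chance gives about 1 in 20, or 7. Untreated tumour 6 accounted for 6 of them: it was high for Flt4 (111.4), Cd34 (604.8), Erg (78.89), Rasip1 (802.7) and Egfl7 (1608) and low for Podxl (139.0). Anti-CD40 tumour 5 was high for Tie1 (353.9), Pecam1 (1995), Icam2 (641.0) and Esm1 (515.9). Beta-glucan tumour 5 was high for Erg (152.9) and Ackr1 (231.4), and beta-glucan tumour 4 was low for Podxl (406.6). Untreated tumour 3 was high for Cdh5 (233.4). Anti-CD40 tumour 6, with 75.1% acinar reads, was low for Ecscr (222.8), and anti-CD40 tumour 2 was low for Lyve1 (26.05). Values are normalized counts.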

How the results depend on the processing

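Calls of members were recounted under each alternative. With equal totals they were 3 with beta-glucan, 2 with anti-CD40, 12 with the combination, 2 for the combination against beta-glucan and 0 for anti-CD40 against beta-glucan. In the same fits 1.76%, 16.8%, 25.4%, 8.28% and 0.237% of all genes were called. Without the tumours over 30% acinar the counts of members were 13, 23 and 22, then 1 and 0, against 9.59%, 19%, 22.4%, 1.75% and 0.958%. With the acinar level in the model anti-CD40 had 10 calls, of which 9 were among the 14 reported, and the combination differed from beta-glucan in 5. The shares of all genes there were 11.5% and 10.1%. Anti-CD40 differed from beta-glucan in 0 without the filter or with equal totals outside acinar genes, and in 2 with DESeq2, which also called 2 for the interaction. The shares of all genes in those fits were 1.52%, 1.73% and 4.49%, and 0.686% for the interaction. Leaving out 1 tumour gave 4 to 13 calls with beta-glucan, 11 to 17 with anti-CD40, 20 to 24 with the combination, 2 to 14 for the combination against beta-glucan, 0 to 7 against anti-CD40, 0 to 1 for anti-CD40 against beta-glucan and 0 to 1 for the interaction. The beta-glucan count was 4 without untreated tumour 2, 5 without untreated tumour 5 or beta-glucan tumour 2, 3 or 5, and 13 without anti-CD40 tumour 5. The cause was not tested. Calls held under every alternative for 3 of 8 members with beta-glucan (Ackr1, Flt4, Mmrn1), 2 of 14 with anti-CD40 (Mmrn1, Prox1) and 10 of 22 with the combination.

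With a replicate block the counts of calls were 9, 13 and 24 against untreated, 11, 0 and 1 for the combination against beta-glucan, against anti-CD40 and for anti-CD40 against beta-glucan, and 0 for the interaction. In that order 6.79%, 18.8%, 33.5%, 16.7%, 1.56%, 2.13% and 0.056% of all genes were called. The 30 pairs of tumours with the same number had a median correlation of deviations of 0.0283 (8 over 0.1). The 151 pairs with other numbers had 0.00305 (40 over 0.1). The numbers showed no clear pairing by this measure, which cannot exclude one, and their meaning is not stated. Numbers were taken from the sample titles, and 1 combination tumour is 5 in its title and 6 in its description, so the blocked counts rest on that choice.

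Signs changed for some values that did not pass the test as reported. Vcam1: beta-glucan vs untreated was -0.04 with the block and -0.05 to 0.07 without single tumours. Flt1: anti-CD40 vs untreated was 0.07 with the acinar level and 0.19 without the tumours over 30% acinar. Tek: anti-CD40 vs untreated was -0.49 with equal totals, -0.25 with quantile normalization, -0.21 with the acinar level and -0.37 to 0.57 without single tumours. Cdh5: anti-CD40 vs untreated was -0.05 with equal totals. Lyve1: anti-CD40 vs untreated was 0.03 with edgeR, 0.05 with DESeq2, 0.23 without the tumours over 30% acinar, 0.03 with the block and -0.18 to 0.31 without single tumours. Flt1: combination vs untreated was 0.04 and 0.08 in the settings named for Flt1 with anti-CD40 (the acinar level, and without the tumours over 30% acinar). It was -0.17 to 0.01 without single tumours. Vcam1: combination vs untreated was -0.10 with equal totals. Lyve1: combination vs untreated was -0.34 with equal totals, -0.03 with quantile normalization, -0.05 with the acinar level and -0.09 to 0.35 without single tumours.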
